A study of Mus musculus with 6 samples.

Results

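The nuclear genes for the subunits of the oxidative phosphorylation machinery were examined in RNA from the mouse stomach corpus, the acid-secreting body of the stomach. Members were taken by gene symbol. The rule took names starting with Ndufa, Ndufb, Ndufc, Ndufs or Ndufv and a digit, Sdha to Sdhd, names starting with Uqcr, Cyc1, names starting with Cox4 to Cox8 and a letter, and names starting with Atp5. Names of the Ndufaf assembly factors and of pseudogenes were left out. The rule used no measured value and found 84 genes among the 18988 rows of the table. By their known place, 35 belonged to complex I, 4 to complex II, 9 to complex III, 17 to complex IV and 15 to complex V. The 4 others (Cox7a2l, Ndufa4l2, Atp5s and Atp5sl) match the rule by name but are not constant subunits of a complex.

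RNA had been sequenced from 3 mice of the genotype PGC;Ras;APC FF (replicates 4 to 6), the PGC-carrying mice, and from 3 control mice of the genotype Ras;APC FF (replicates 1 to 3). Each library came from 1 mouse of C57BL/6 background, so replicates were separate animals, and both groups carried Ras;APC FF. The meaning of PGC and FF, the promoter or cell type behind each allele, and the animals' age, sex and time of sampling are not given in the labels. The table gives FPKM, a level per gene length and per library total, and the number of reads behind it is unknown. The comparison asks how the corpus transcriptome differs when the PGC component is present.

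Oxidative phosphorylation turns the energy of electrons into ATP in the inner mitochondrial membrane. Complex I takes electrons from NADH and complex II takes them from succinate. Complex III passes them to cytochrome c, and complex IV hands them to oxygen. Complexes I, III and IV pump protons, and complex V, the ATP synthase, uses the proton gradient to make ATP. Complexes I, III, IV and V mix subunits of nuclear and of mitochondrial genes, and the mitochondrially encoded ones were not analysed here. In the corpus, the parietal cells that secrete acid with an ATP-driven proton pump are especially rich in mitochondria.

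The subunit messages were among the abundant RNAs of the tissue. Of the 84 members, 66 averaged over 100 FPKM across the 6 libraries, as did 601 of all rows, and 56 lay among the 500 rows of highest mean. Together the members took 2.46%, 2.86% and 2.68% of summed FPKM in replicates 4, 5 and 6 (PGC;Ras;APC FF), against 2.37%, 2.38% and 2.97% in control replicates 1, 2 and 3. The ranges of the groups overlapped. A gene was tested where it reached 1 FPKM in at least 3 libraries, which 81 members did. The 3 that did not, Cox8b, Cox6a2 and Cox7b2, are complex IV isoforms known from muscle or testis.

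The libraries differed in ways that touch these values. Pgc, Clps and Pla2g1b, secreted digestive proteins, took 32.7%, 31.7% and 6.36% of summed FPKM in replicates 4, 5 and 6 (PGC;Ras;APC FF), against 48.1%, 43.9% and 34.9% in control replicates 1, 2 and 3. The median tested gene stood 0.18, 0.16 and 0.45 above the control mean (log2 scale) in PGC-carrying replicates 4, 5 and 6, against -0.05, 0.02 and 0.02 in control replicates 1, 2 and 3. Control replicate 3 alone had Xist at 0, and it alone had more than 0.01 FPKM of the Y-chromosomal Eif2s3y (13.2 FPKM) and Ddx3y (6.09 FPKM). It therefore read as male and the other 5 as female. The corpus label fitted its markers: the lowest values of the acid pump genes Atp4a and Atp4b in any library were 428 and 723 FPKM.

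On the FPKM scale, the subunit messages in PGC;Ras;APC FF corpus were close to control level while most other genes were somewhat higher. This reading depends on the scale. After median-of-ratios scaling the median log2 change was -0.34 for the members and -0.01 for all tested genes. The values that follow are on the FPKM scale. The median log2 change of the 81 tested members, PGC;Ras;APC FF over Ras;APC FF on the log2(FPKM + 1) scale, was -0.03, against 0.26 for all 11857 tested genes. Of the members, 32 of 81 were above 0, against 80.6% of all tested genes. The log2 change was under 0.3 in size for 77 members and for 48.7% of all tested genes. Because all tested genes centred on 0.26 and not on 0, this contrast does not show that the members were steadier. The isoform genes Cox7a1, Cox6b2 and Atp5g2 lay farthest from the rest.

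At a limma adjusted p of 0.05, 0 of 81 members were called higher and 0 lower. Of all tested genes, 0.11% were called higher and 0.0422% lower, so few genes of any kind passed. At an unadjusted limma p under 0.05, 1 member (Cox6b2) was higher and 0 were lower, against 31.8% and 3.63% of all tested genes. In 1 member (Ndufa4l2) every PGC-carrying library was above every control library, and in 0 was it the other way, against 42.7% and 5.47% of all tested genes. The 95% interval of the change held 0 for 80 of 81 members. It lay within 1 of no change for 79 members and within 0.5 for 29, so modest changes of single subunits were not detectable with 3 mice a group. The median standard error was 0.19 for members and 0.163 for all tested genes.

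**Figure D1:**
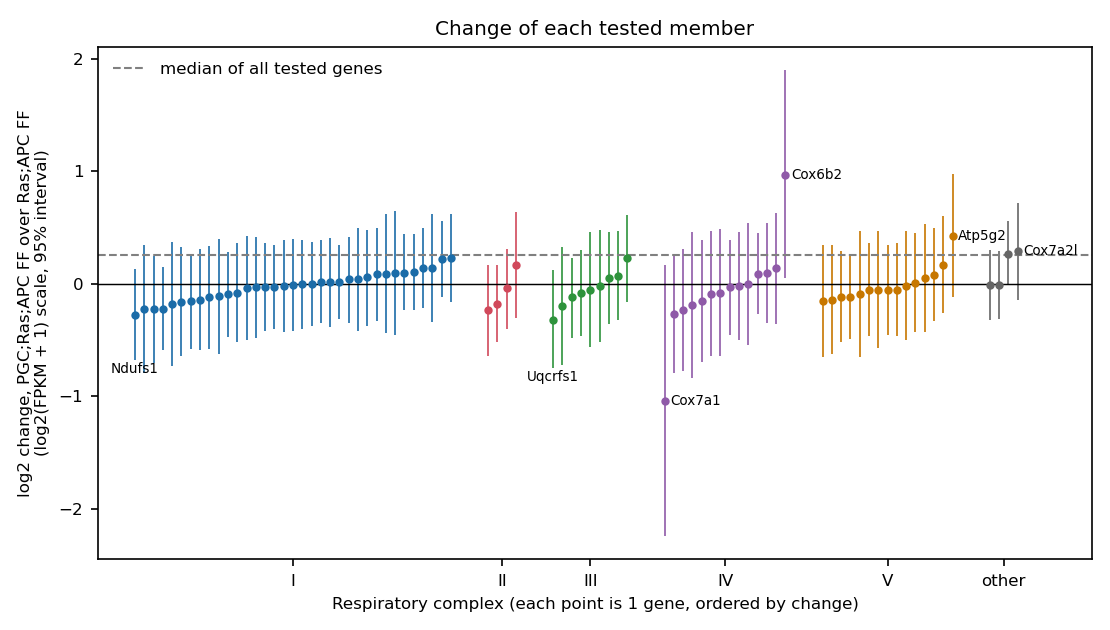
log2 change of each of the 81 tested members (PGC;Ras;APC FF over Ras;APC FF, log2(FPKM + 1) scale), grouped by complex and ordered by size, with its 95% interval from limma (n = 3 mice each). Most points lie between -0.3 and 0.3, below the dashed median of all tested genes at 0.26; Cox7a1 at -1.04 and Cox6b2 at 0.97 stand far from the rest.

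The plot of changes by complex shows, on the FPKM scale, a median near 0 for each machine. The median log2 change was -0.01 for complex I, -0.11 for complex II, -0.05 for complex III, -0.05 for complex IV and -0.05 for complex V. Set against the median of all tested genes, these were -0.27, -0.37, -0.31, -0.31 and -0.31. The peripheral arm of complex I, which binds NADH, had 16 members with a median of -0.01, and the membrane arm, which pumps protons, had 19 members with a median of -0.01. The proportions between complexes were also steady. Complex I made up 24.2% to 24.6% of the members' summed FPKM in PGC;Ras;APC FF mice and 24.2% to 24.8% in controls. Complex V made up 29.2% to 29.7% in PGC-carrying mice and 27.9% to 29.5% in controls. Complex IV made up 29.6%, 29.8% and 29.6% in replicates 4, 5 and 6 (PGC;Ras;APC FF), against 29.4%, 29.5% and 32.3% in control replicates 1, 2 and 3, so replicate 3 alone held a larger complex IV share.

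The members varied more between libraries than between complexes. The mean log2 level of the tested members, relative to the mean of the controls, was -0.06, 0.13 and -0.14 in replicates 4, 5 and 6 (PGC;Ras;APC FF), against -0.12, -0.13 and 0.24 in control replicates 1, 2 and 3. Replicate 3 stood highest and replicate 6 lowest, and the groups overlapped. The highest of the 6 values was in replicate 3 for 49 of 81 members and for 10.3% of all tested genes. The lowest was in replicate 6 for 42 of 81 members and for 11.3% of all tested genes. For all genes replicate 6 was the reverse: it held the highest value of 68.5% of tested genes, but of only 8 members, which were Ndufa2, Ndufa7, Ndufc2, Ndufs4, Cox6b2, Atp5g2, Cox7a2l and Atp5s.

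**Figure D2:**
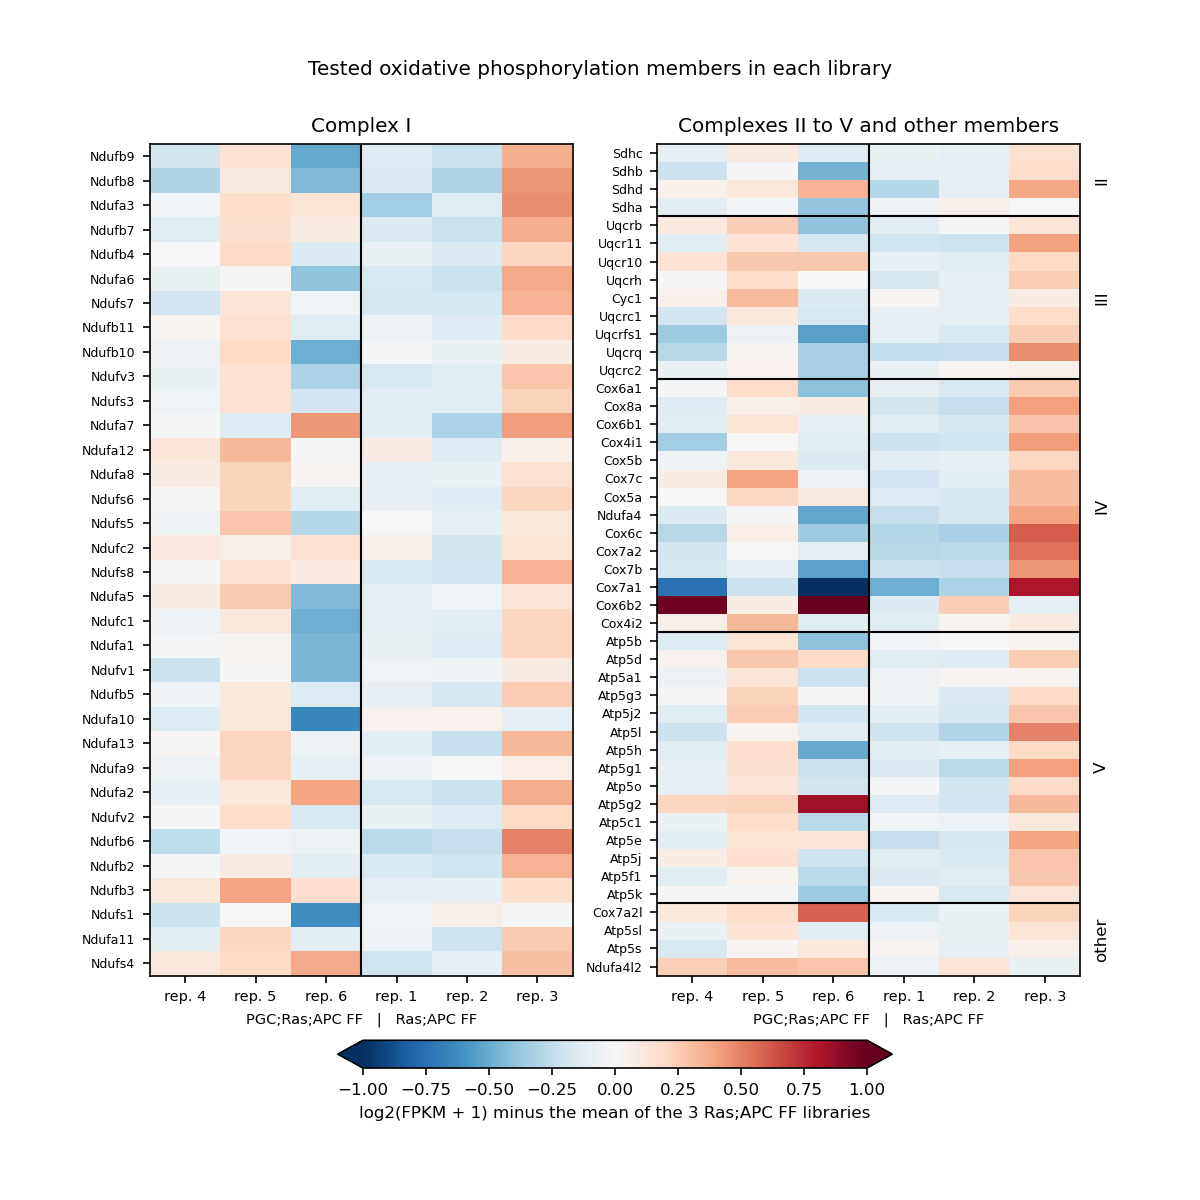
Heat map of 80 of the 81 tested members (rows, by complex and falling mean level) in the 6 libraries (columns, PGC;Ras;APC FF replicates 4 to 6 left of Ras;APC FF replicates 1 to 3). Colour is log2(FPKM + 1) minus the mean of the 3 Ras;APC FF libraries, clipped at -1 and 1; the replicate 3 column is mostly red and the replicate 6 column mostly blue across all complexes.

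In the heat map the column of replicate 3 stands apart from the rest. That of replicate 6 averaged -0.14, near control replicates 1 and 2 at -0.12 and -0.13. Relative to each library's median gene, replicate 6 was at -0.59 and control replicates 1 and 2 at -0.07 and -0.15. Without replicates 3 and 6, an alternative added after seeing the data, the median log2 change of the members was 0.17 and that relative to all tested genes was -0.01. Then 73 of 81 members were above 0, against 77.6% of all tested genes, and 14 were higher at an unadjusted limma p under 0.05, against 33.9%. Of the members 1, Atp5g2, was called higher (log2 change 0.39, limma adjusted p = 0.033), against 16.4% of all tested genes. Replicate 3 held the highest value of 49 members and replicate 6 the lowest of 42. Leaving both out therefore moves the relative median toward 0 by construction, and no conclusion is drawn from it. Leaving out 1 library at a time moved the relative median between -0.42 and -0.13. In replicate 3, genes with few exon bases, counted over the merged exons of all transcripts, were higher in general. Genes with under 1000 such bases stood 0.25 above the mean of replicates 1 and 2, and those of 2000 or more 0.01 above it. Members of the same 2 classes stood 0.32 and 0.29 above it. Merged exons can be longer than a single message, so these classes do not separate short from long messages. What part message length or sex has in this was not tested.

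Scaling also set the direction. The FPKM scale divides by a total in which a few secretory messages weigh much. After median-of-ratios scaling, the median of all tested genes was -0.01, that of the members -0.34, and 3 of 81 members were above 0, against 49.1% of all tested genes. The medians by complex were then -0.32 for complex I, -0.42 for II, -0.37 for III, -0.37 for IV and -0.36 for V. On this scale 0 members were called at a limma adjusted p of 0.05, against 0.0759% of all tested genes higher and 0.0843% lower. Further, 6 members were lower at an unadjusted limma p under 0.05, against 12.1% of all tested genes. In 15 members every PGC-carrying library was below every control library, against 17.5% of all tested genes. In 0 members was it the other way, against 17.6%. At the same unadjusted p, 21 of 81 members were lower with quantile normalization, against 13.0% of all tested genes. With the total without the 50 most abundant rows 15 were, against 13.7%.

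The same level relative to each library's median gene was -0.24, -0.03 and -0.59 in replicates 4, 5 and 6 (PGC;Ras;APC FF), against -0.07, -0.15 and 0.22 in control replicates 1, 2 and 3. Replicates 4 and 6 were below all control libraries, and replicate 5 was among them. Markers of parietal cells were likewise lowest in replicate 6. Of 14 tested parietal markers 13 were below 0, with a median log2 change of -0.72, and 0 passed an adjusted p of 0.05. Their mean level was -0.38, -0.15 and -1.37 in PGC-carrying replicates 4, 5 and 6, against -0.07, 0.03 and 0.04 in control replicates 1, 2 and 3. Their summed FPKM was 2472 to 8303 in PGC;Ras;APC FF mice and 8572 to 9196 in controls, and no marker was at 0 in all libraries. In whole tissue, fewer cells of a type and less RNA per cell cannot be told apart. The part of parietal cells in the members' level was not tested.

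Smooth muscle markers were also lowest in replicate 6. All 11 were below 0 (median log2 change -1.09, 0 passing an adjusted p of 0.05). In each, every PGC-carrying library was under every control library, against 5.47% of all tested genes. Their level was -0.91, -1.12 and -1.5 in replicates 4, 5 and 6 (PGC;Ras;APC FF), against -0.14, -0.30 and 0.45 in control replicates 1, 2 and 3. Replicate 3, highest for the members, was also highest for muscle, but not for muscle alone. Among the controls it was also highest for white fat markers (0.26) and surface pit markers (0.35). It was the lowest control for chief, mucous neck, endothelium and proliferation markers. The part of muscle in the members' level was not tested. The level of 7 chief cell markers was 0.25, 0.14 and -1.81 in PGC-carrying replicates 4, 5 and 6, against 0.18, -0.03 and -0.15 in control replicates 1, 2 and 3. That of 7 endocrine markers was -0.08, -0.10 and -1.59, against 0.12, -0.16 and 0.04 in the same order. All 8 proliferation markers were above 0 (median log2 change 0.86), as were 5 tested mucous neck markers (median 1.31) and 6 tested leukocyte markers (median 0.77), again with 0 passing an adjusted p of 0.05. Of all tested genes 80.6% were above 0.

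**Figure D3:**
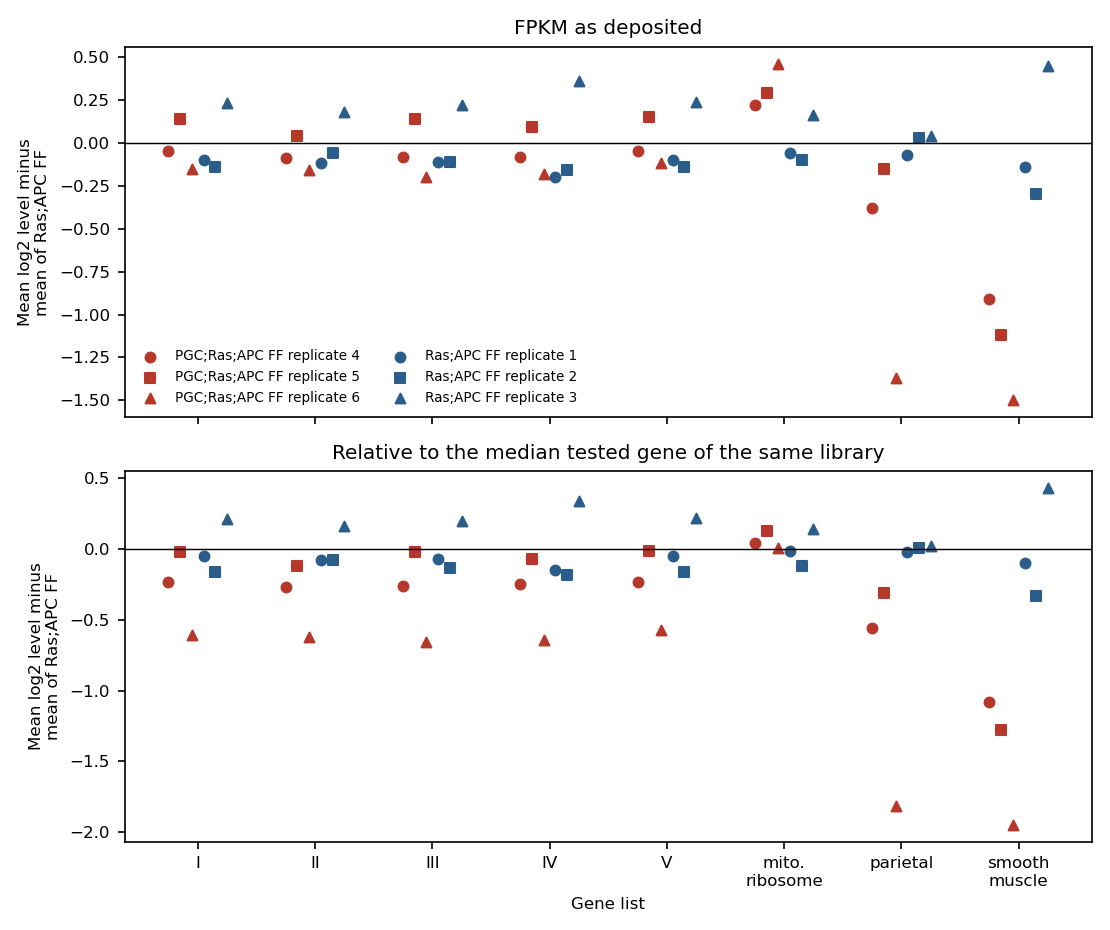
Mean log2 level of the tested genes of each complex, of the mitochondrial ribosome and of parietal and smooth muscle markers in each library, relative to the mean of the Ras;APC FF libraries; the upper panel uses FPKM, the lower subtracts the median tested gene of the same library. The 5 complexes share 1 pattern, with replicate 3 highest and replicate 6 well below the others in the lower panel (-0.57 to -0.66), while the mitochondrial ribosome stays near 0 there.

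Complex I is the largest of the machines, with catalytic core subunits and many accessory ones. Its most abundant member, Ndufb9 of the membrane arm, had 295, 369 and 234 FPKM in PGC;Ras;APC FF mice, against 305, 286 and 427 FPKM in controls. Ndufs1, a core iron-sulfur subunit of the peripheral arm, had 42.7, 50.1 and 32.1 FPKM in PGC;Ras;APC FF mice, against 48.6, 52.0 and 49.1 FPKM in controls. Replicates 4 and 6 lay under the controls and replicate 5 within them. Its log2 change was -0.28 (95% interval -0.68 to 0.13, limma adjusted p = 0.267), the most negative of complex I.

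Ndufv1, which holds the site where NADH is oxidised, had 103, 120 and 86.7 FPKM in PGC;Ras;APC FF mice, against 117, 115 and 127 FPKM in controls (log2 change -0.22, limma adjusted p = 0.322). Replicate 6 was lowest, and replicate 5 lay among the controls. Ndufs4, an accessory subunit needed for a stable complex, was the most positive of complex I. It had 31.8, 33.9 and 38.5 FPKM in PGC-carrying mice, against 25.4, 27.3 and 36.3 FPKM in controls (log2 change 0.23, 95% interval -0.16 to 0.62, limma adjusted p = 0.320). It was -0.07 after median-of-ratios scaling. Further members of complex I had log2 changes from -0.22 to 0.22.

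Complex II, succinate dehydrogenase, is also an enzyme of the citric acid cycle and is encoded in the nucleus alone. Sdha, its flavoprotein, had 99.9, 105 and 81.2 FPKM in PGC;Ras;APC FF mice, against 103, 111 and 107 FPKM in controls (log2 change -0.18, limma adjusted p = 0.389). Sdhb, the iron-sulfur subunit, had 154, 177 and 128 FPKM in PGC-carrying mice, against 168, 167 and 202 FPKM in controls (log2 change -0.23, limma adjusted p = 0.336). In both genes replicates 4 and 6 were below all controls, while replicate 5 was among them.

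The membrane anchors of complex II had changes nearer 0 or above it. Sdhc had 204, 232 and 198 FPKM in PGC;Ras;APC FF mice, against 207, 205 and 241 FPKM in controls (log2 change -0.04). Sdhd had 126.5, 132 and 155 FPKM in PGC-carrying mice, against 99.65, 114 and 160 FPKM in controls (log2 change 0.17, limma adjusted p = 0.539). The groups overlapped in both, and Sdhd was -0.14 after median-of-ratios scaling.

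Complex III carries electrons from ubiquinol to cytochrome c through cytochrome c1 and the Rieske iron-sulfur protein. Cyc1, cytochrome c1, had 218, 261 and 190 FPKM in PGC;Ras;APC FF mice, against 213, 196 and 222 FPKM in controls (log2 change 0.07). Uqcrfs1, the Rieske protein, had 147, 181 and 130 FPKM in PGC-carrying mice, against 177, 170 and 224 FPKM in controls. Replicates 4 and 6 were below every control and replicate 5 was not. Its log2 change, -0.32 (95% interval -0.75 to 0.12, limma adjusted p = 0.241), was the most negative of complex III.

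Small subunits of complex III had changes nearer 0 or above it. Uqcrb, the most abundant, had 515, 572.5 and 365 FPKM in PGC;Ras;APC FF mice, against 447, 479 and 524 FPKM in controls (log2 change -0.02). Uqcr10 had 370, 403 and 402 FPKM in PGC-carrying mice, against 316, 308 and 384 FPKM in controls (log2 change 0.23, limma adjusted p = 0.329). Uqcr10 was -0.09 after median-of-ratios scaling, and its groups overlapped. The other 5 members had log2 changes from -0.20 to 0.05.

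Complex IV, cytochrome c oxidase, has the subunits with tissue isoforms, and its members spread most. Its ubiquitous subunits followed the common pattern. Cox6a1, the most abundant member of all, had 1137, 1304 and 859 FPKM in PGC;Ras;APC FF mice, against 1069, 1022 and 1373 FPKM in controls (log2 change -0.08). Cox4i1, a regulatory subunit, had 528, 670 and 613 FPKM in PGC-carrying mice, against 574, 580 and 890 FPKM in controls (log2 change -0.15). Cox5a had 397, 459 and 422 FPKM in PGC-carrying mice, against 361, 352 and 491 FPKM in controls (log2 change 0.10). Replicate 3 was highest in all of these genes, and the groups overlapped. Ndufa4, long counted to complex I but a complex IV subunit, had 369, 402 and 284 FPKM in PGC-carrying mice, against 347, 362 and 537 FPKM in controls (log2 change -0.23).

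Cox7a1 and Cox6b2 were the members of most negative and most positive change. Cox7a1 encodes the form of subunit 7a found in heart and skeletal muscle, in place of the general Cox7a2, and Cox6b2 encodes a testis form in place of the general Cox6b1. Their promoters are shown because the members at both ends of the range were each the tissue form of such a pair. The sequences are from RefSeq on GRCm38.p6, 5′ to 3′ along the gene, from 250 bases before to 50 bases after the start of transcription. Of the 84 members 69 had an entry, with 75 promoters in all. Capitals mark matches, on either strand, to the cores of 4 factors linked to mitochondrial genes: GCGCNNGCG (NRF1, N being any base), CCGGAAG (GABP and other ETS factors), AAGATGGCG (YY1) and AAGGTCA (the estrogen-related receptors). Cox7a1 lies at chr7:30183921-30184220 on the plus strand, and Cox7a2 at chr9:79759804-79760103, Cox6b2 at chr7:4753045-4753344 and Cox6b1 at chr7:30626065-30626364 on the minus strand.
Cox7a1: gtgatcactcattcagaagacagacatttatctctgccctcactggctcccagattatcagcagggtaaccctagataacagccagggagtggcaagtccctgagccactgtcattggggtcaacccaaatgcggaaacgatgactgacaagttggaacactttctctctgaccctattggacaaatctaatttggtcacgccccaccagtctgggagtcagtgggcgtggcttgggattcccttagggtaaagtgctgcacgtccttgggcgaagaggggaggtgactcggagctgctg
Cox7a2: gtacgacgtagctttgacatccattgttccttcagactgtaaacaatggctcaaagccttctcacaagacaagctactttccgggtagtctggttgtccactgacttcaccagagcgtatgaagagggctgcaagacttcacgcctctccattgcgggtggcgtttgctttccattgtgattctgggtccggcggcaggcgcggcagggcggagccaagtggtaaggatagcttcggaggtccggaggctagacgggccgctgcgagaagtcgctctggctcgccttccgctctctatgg
Cox6b2: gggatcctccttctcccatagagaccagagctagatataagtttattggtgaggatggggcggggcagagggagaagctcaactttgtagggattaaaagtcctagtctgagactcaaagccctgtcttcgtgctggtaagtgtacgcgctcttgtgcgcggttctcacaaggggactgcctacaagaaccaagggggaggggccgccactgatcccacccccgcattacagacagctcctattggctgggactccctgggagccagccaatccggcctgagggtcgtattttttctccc
Cox6b1: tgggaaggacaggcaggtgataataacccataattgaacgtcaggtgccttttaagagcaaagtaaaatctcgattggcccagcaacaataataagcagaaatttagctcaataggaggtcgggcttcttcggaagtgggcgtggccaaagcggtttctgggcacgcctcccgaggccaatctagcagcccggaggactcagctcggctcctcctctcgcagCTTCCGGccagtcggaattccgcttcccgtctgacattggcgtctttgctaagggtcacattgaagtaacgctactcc

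Among these 4 windows only that of Cox6b1 held a match, to the ETS core, which starts 28 bases before the start. Cox7a1 had 7 CpG dinucleotides in its 300 bases and Cox7a2 had 20. Cox6b2 had 10 and Cox6b1 had 17. Across members, 40.0% of promoters held the NRF1 core, against 12.1% of all 32851 promoters. Both strands held it, 1 base apart, in 25.3% of member promoters and 6.23% of all. The ETS core was in 21.3% of member promoters and 8.86% of all. The YY1 core was in 12.0% and 1.40%, and the core of the estrogen-related receptors in 10.7% and 4.72%. At least 1 of the 4 was in 60.0% of member promoters and 23.8% of all. Of 74 promoters of mitochondrial ribosome genes, 28.4% held the NRF1 core, 33.8% the ETS core and 10.8% the YY1 core. The core of the estrogen-related receptors was in 5.41% of them. The NRF1, ETS and YY1 shares are thus not particular to the members. A match describes these letters alone and shows no binding.

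Cox7a1 had 66.15, 96.2 and 24.55 FPKM in PGC-carrying mice, against 79.4, 89.6 and 197 FPKM in controls. It was lowest in replicate 6 and highest in replicate 3, and replicate 5 lay among the controls. Its log2 change was -1.04 (95% interval -2.24 to 0.17, limma adjusted p = 0.183), and without single libraries it ran from -1.45 to -0.48. Cox7a2 had 180, 205 and 192 FPKM in PGC-carrying mice, against 168, 169 and 297 FPKM in controls (log2 change -0.09). The Cox7a1 message was 36.8%, 47.0% and 12.8% of the Cox7a2 message in replicates 4, 5 and 6 (PGC;Ras;APC FF), against 47.2%, 52.9% and 66.1% in control replicates 1, 2 and 3. This ratio, which does not depend on library scaling, was lower in every PGC-carrying library, but replicates 5 and 1 nearly touched.

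Cox8b, the muscle form of subunit 8, was near the detection limit and was not tested. It had 0.25, 0.91 and 0.08 FPKM in PGC-carrying mice, against 0.99, 0.80 and 1.80 FPKM in controls. Cox8a, the general form, had 765, 870 and 880 FPKM in PGC-carrying mice, against 737, 711 and 1112 FPKM in controls (log2 change 0.00). Striated muscle markers were read beside these isoforms. Of 5 tested, 4 were below 0 and 0 passed an adjusted p of 0.05, with a median log2 change of -0.14 and Actc1, cardiac actin, at 0.46. Their mean level was -0.13, -0.09 and -0.74 in PGC-carrying replicates 4, 5 and 6, against 0.01, -0.04 and 0.03 in control replicates 1, 2 and 3. The 11 marker genes in the table summed to 13.8, 14.4 and 7.6 FPKM in replicates 4, 5 and 6 (PGC;Ras;APC FF), against 18.95, 18.8 and 28.7 FPKM in control replicates 1, 2 and 3, with 5 genes under 1 FPKM in every library. Muscle creatine kinase, Ckm, had a log2 change of -1.30 (limma adjusted p = 0.085) with 5.02, 4.58 and 2.81 FPKM in PGC-carrying mice, against 9.07, 9.39 and 17.4 FPKM in controls. The part of muscle tissue in the Cox7a1 and Cox8b values was not tested.

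Cox6b2 had 4.07, 1.71 and 8.37 FPKM in PGC;Ras;APC FF mice, against 1.33, 2.05 and 1.41 FPKM in controls. Replicates 4 and 6 were above all controls, and replicate 5 was within them. Its log2 change of 0.97 (95% interval 0.05 to 1.90, unadjusted p = 0.042) had a limma adjusted p of 0.130, the lowest of the members. It was called without replicate 5 (log2 change 1.42, limma adjusted p = 0.037) and with array weights, which give noisy libraries less say (0.79, limma adjusted p = 0.0311). It was the 1 member of 81 called in each, against 3.54% of all tested genes called higher without replicate 5 and 29.7% with array weights. The estimate of the array weights stopped before it converged. Cox6b1 had 695, 833 and 714 FPKM in PGC-carrying mice, against 698, 673 and 925 FPKM in controls, so Cox6b2 was at most 1.17% of Cox6b1 in any library. Cox4i2, the isoform known from lung, was as rare, with 1.35, 1.84 and 1.07 FPKM in PGC-carrying mice, against 1.07, 1.29 and 1.41 FPKM in controls (log2 change 0.09). Cox6a2, a muscle form, was at most 0.09 FPKM and Cox7b2 at most 0.10 FPKM.

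**Figure D4:**
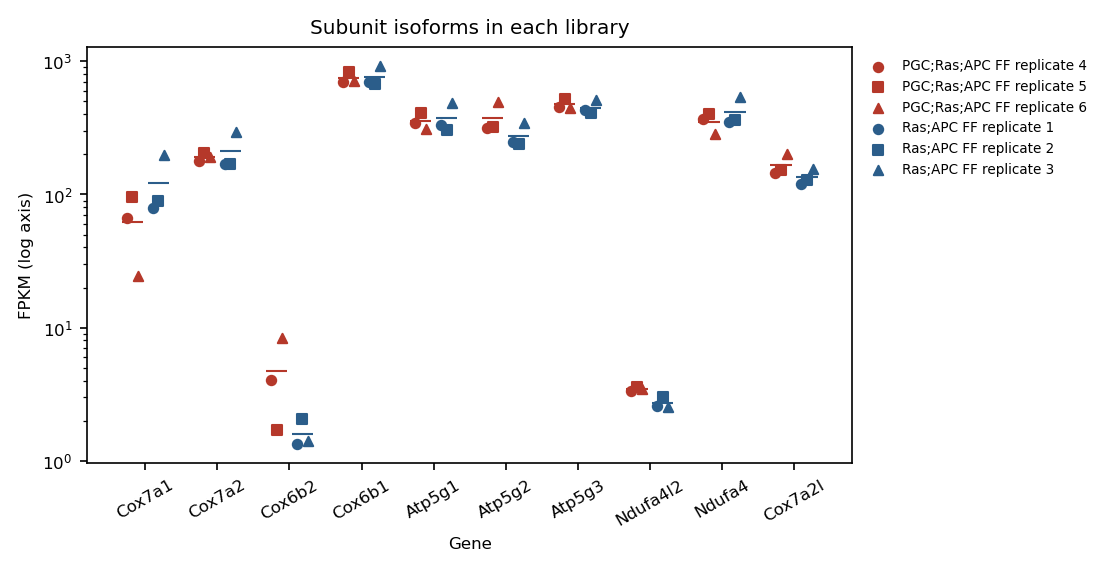
FPKM (log axis) of subunit isoforms and related members in each library, PGC;Ras;APC FF left of Ras;APC FF for each gene, with the group mean as a bar (n = 3 mice each). Cox7a1 and Cox6b2 spread widely between libraries, Atp5g2 and Cox7a2l have their highest value in replicate 6, and the general forms Cox7a2, Cox6b1, Atp5g1 and Atp5g3 overlap between the groups.

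Complex V, the ATP synthase, has a catalytic head of alpha and beta subunits and a membrane ring of c subunits. Atp5b, the beta subunit, had 859, 1041 and 711 FPKM in PGC;Ras;APC FF mice, against 925, 942 and 968 FPKM in controls (log2 change -0.14, limma adjusted p = 0.637). Atp5a1, the alpha subunit, had 463, 527 and 417 FPKM in PGC-carrying mice, against 465, 493 and 491 FPKM in controls (log2 change -0.05). In both, the controls lay close together, with replicate 5 above them and replicates 4 and 6 below. Atp5h, the stalk subunit d, was the most negative of the complex at -0.15, with 374, 456 and 286 FPKM in PGC-carrying mice, against 375, 383 and 468 FPKM in controls.

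The c subunit is made from 3 genes, Atp5g1, Atp5g2 and Atp5g3, whose mature proteins are identical and whose import sequences differ. Their promoters are shown because these 3 genes for 1 product had log2 changes of different size and sign. Atp5g1 lies at chr11:96075582-96075881, Atp5g2 at chr15:102670998-102671297 and Atp5g3 at chr2:73911277-73911576 on the minus strand (RefSeq, GRCm38.p6), with capitals as above.
Atp5g1: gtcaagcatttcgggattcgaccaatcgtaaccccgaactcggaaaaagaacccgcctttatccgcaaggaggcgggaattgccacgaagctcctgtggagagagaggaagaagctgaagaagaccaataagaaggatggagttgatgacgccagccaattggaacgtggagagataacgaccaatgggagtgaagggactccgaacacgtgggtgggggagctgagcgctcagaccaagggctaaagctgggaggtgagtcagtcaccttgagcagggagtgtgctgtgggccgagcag
Atp5g2: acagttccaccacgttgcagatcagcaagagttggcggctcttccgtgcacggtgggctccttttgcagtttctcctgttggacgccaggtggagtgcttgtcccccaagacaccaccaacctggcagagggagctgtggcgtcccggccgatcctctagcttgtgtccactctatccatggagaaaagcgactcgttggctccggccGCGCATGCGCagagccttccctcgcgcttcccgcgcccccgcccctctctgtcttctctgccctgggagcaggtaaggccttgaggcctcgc
Atp5g3: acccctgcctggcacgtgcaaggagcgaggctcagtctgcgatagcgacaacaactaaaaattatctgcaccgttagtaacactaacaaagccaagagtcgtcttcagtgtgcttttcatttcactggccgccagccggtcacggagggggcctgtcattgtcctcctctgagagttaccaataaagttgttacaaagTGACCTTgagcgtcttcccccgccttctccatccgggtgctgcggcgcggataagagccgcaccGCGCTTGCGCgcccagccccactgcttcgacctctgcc

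Atp5g2 held the NRF1 core on both strands, in overlapping matches that start 42 and 41 bases before the start. Atp5g3 held it likewise, 13 and 14 bases after the start, with the core of the estrogen-related receptors 52 bases before it, and Atp5g1 held none of the 4. Atp5g2 had 318, 321 and 492 FPKM in PGC;Ras;APC FF mice, against 250, 239 and 342 FPKM in controls. Replicates 4 and 5 were above replicates 1 and 2 and below replicate 3, and replicate 6 was highest. Its log2 change of 0.43 (95% interval -0.12 to 0.98, limma adjusted p = 0.215) was the most positive of complex V. It kept its sign with any 1 library left out (0.22 to 0.59). The change was smaller in the other scalings, at 0.12 for both median of ratios and quantile and at 0.06 for the total without the 50 most abundant rows.

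The changes of the other c subunit genes were near 0. Atp5g1 had 344, 407 and 312 FPKM in PGC-carrying mice, against 330, 303 and 485 FPKM in controls (log2 change -0.05, 95% interval -0.57 to 0.47). Atp5g3 had 452, 526 and 450 FPKM in PGC-carrying mice, against 433, 406 and 511 FPKM in controls (log2 change 0.08, 95% interval -0.33 to 0.50). Atp5g2 thus made up 28.5%, 25.6% and 39.2% of the 3 in replicates 4, 5 and 6 (PGC;Ras;APC FF), against 24.7%, 25.2% and 25.6% in control replicates 1, 2 and 3. The difference between the genes' changes was not tested, and replicates 5 and 3 were nearly equal at 25.62% and 25.565%. The 3 genes summed to 1114, 1254 and 1255 FPKM in PGC-carrying mice, against 1013, 948 and 1338 FPKM in controls. Processed copies of several subunit genes exist in the mouse genome and the handling of reads that map to several places is not stated, so values of single isoforms are uncertain to that extent.

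Of the 4 members outside the complexes, Cox7a2l and Ndufa4l2 had changes near the median of all tested genes. Cox7a2l, a factor that joins complexes III and IV into supercomplexes, had 144, 152 and 201 FPKM in PGC;Ras;APC FF mice, against 120, 127.5 and 156 FPKM in controls (log2 change 0.29, 95% interval -0.14 to 0.72, limma adjusted p = 0.269). Only replicate 3 lay above replicates 4 and 5. Ndufa4l2, a relative of Ndufa4 known as a target of hypoxia-inducible factors, had 3.35, 3.58 and 3.47 FPKM in PGC-carrying mice, against 2.57, 3.03 and 2.51 FPKM in controls. Its groups did not overlap, and its log2 change was 0.27 (limma adjusted p = 0.152). Atp5s and Atp5sl both had a log2 change of -0.01.

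Other genes of mitochondrial energy supply were read beside the members. The mitochondrial ribosome, which makes the mitochondrially encoded subunits, had 77 of 77 tested genes above 0 with a median log2 change of 0.33. Of all tested genes 80.6% were above 0, with a median of 0.26. Of these, 36 had an unadjusted limma p under 0.05, all higher (46.8%, against 31.8% of all tested genes), and 0 passed an adjusted p of 0.05. After median-of-ratios scaling the median was 0.03 and 46 of 77 were above 0. Its level relative to the median gene was 0.04, 0.13 and 0.01 in replicates 4, 5 and 6 (PGC;Ras;APC FF), against -0.01, -0.12 and 0.14 in control replicates 1, 2 and 3. In replicate 6, where the members stood at -0.59, it stood at 0.01. Its largest change among the 3 genes of smallest p was Mrps18b, a protein of the small ribosomal subunit, with 34.55, 34.6 and 45.1 FPKM in PGC-carrying mice, against 23.3, 22.8 and 24.3 FPKM in controls (log2 change 0.66).

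The factors that assemble the complexes lay between the members and the ribosome. Of 45 tested, 39 were above 0 (86.7%, against 80.6% of all tested genes) and 0 passed an adjusted p of 0.05. The median log2 change was 0.14, and -0.13 after median-of-ratios scaling. Sco2, a copper chaperone of complex IV, was at 0.44 and Sdhaf1, which helps to put iron-sulfur clusters into complex II, at 0.40. Atpaf1, a chaperone of the complex V head, was at -0.29, with 7.15, 7.36 and 6.55 FPKM in PGC;Ras;APC FF mice, against 8.25, 8.79 and 9.41 FPKM in controls. Of 12 tested genes for cytochrome c and ubiquinone synthesis, 8 were above 0 (median 0.22). Of 7 exchange carriers and channels, 4 were above 0 (median 0.17). Of all tested genes 80.6% were above 0 (median 0.26). Slc25a4, the ATP and ADP exchanger of muscle and heart, was at -0.45, with 107, 125 and 75.7 FPKM in PGC-carrying mice, against 140, 127 and 147.5 FPKM in controls.

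Among 17 regulators of mitochondrial gene expression, 13 were above 0 (76.5%, against 80.6% of all tested genes) and 0 passed an adjusted p of 0.05. Their median log2 change was 0.19, against 0.26 for all tested genes. After median-of-ratios scaling 3 of the 17 were above 0, against 49.1% of all tested genes, with a median of -0.09. Myc was at 0.77, with 12.1, 15.6 and 17.3 FPKM in PGC;Ras;APC FF mice, against 8.61, 10.45 and 6.30 FPKM in controls. Esrrb, an estrogen-related receptor, was at -0.82, with 1.98, 2.34 and 0.66 FPKM in PGC-carrying mice, against 3.72, 3.03 and 3.76 FPKM in controls. Perm1, a muscle regulator of the same pathway, was at -0.67. In each of these genes, named for their smallest p, the groups did not overlap. Of the 17, 6 were higher and 4 lower without overlap, against 42.7% and 5.47% of all tested genes. Ppargc1a, the coactivator of mitochondrial biogenesis, had 2.40, 3.43 and 1.71 FPKM in PGC-carrying mice, against 1.90, 1.50 and 3.51 FPKM in controls (log2 change 0.11). Of the complex members with names outside the rule, Atpif1, the inhibitor of the ATP synthase, was at 0.22 and Usmg5, a small subunit of it, at -0.11.

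**Figure D5:**
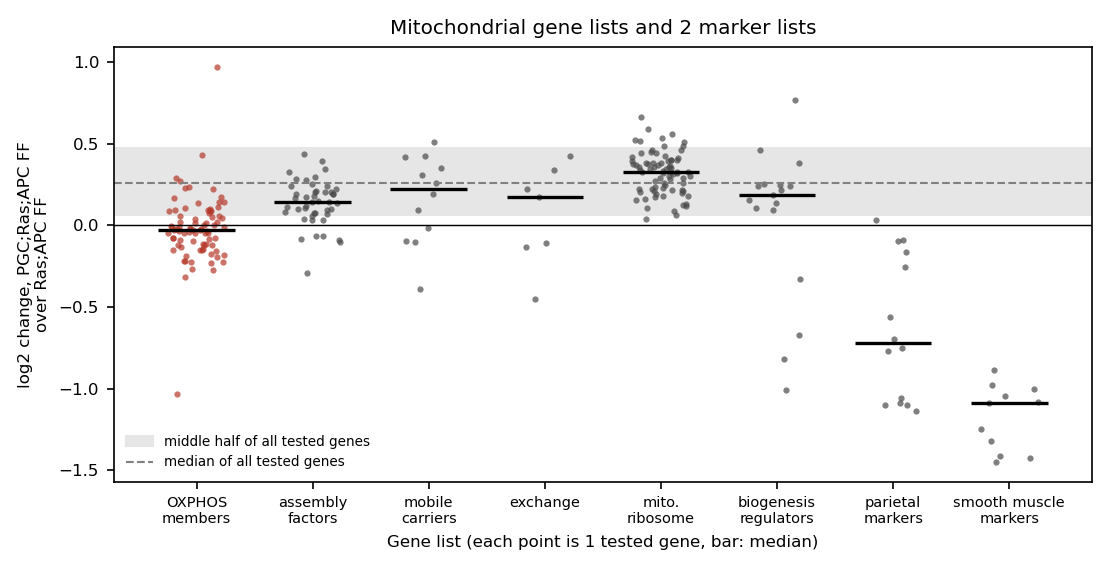
log2 change (PGC;Ras;APC FF over Ras;APC FF, log2(FPKM + 1) scale) of the tested genes of the oxidative phosphorylation members, 5 other mitochondrial lists and 2 marker lists; bars are medians, and the grey band and dashed line are the middle quartiles (0.06 to 0.47) and the median (0.26) of all tested genes. The members centre on -0.03, below the band, the mitochondrial ribosome on 0.33, and the parietal and smooth muscle markers on -0.72 and -1.09.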

How the data were processed

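The authors deposited 1 table of FPKM values, rounded to 2 decimals, for the 6 libraries. Per the submitters' processing notes, STAR, featureCounts and the mouse build mm10 were used. The sources used here give no version, annotation, strand setting or step from reads to FPKM. Reads per library are unknown, so no counting interval is given.

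Values were tested as log2(FPKM + 1), which understates the change of low genes, with genotype as the only term (two-sided, eBayes with trend, limma 3.58.1 under R 4.3.3). Genes with at least 1 FPKM in at least 3 of 6 libraries entered, and Benjamini-Hochberg adjustment ran over all 11857. With 3 mice a group the smallest two-sided exact p is 0.1. The fit was also run on simulated data with independent noise for each gene. That simulation held no shift shared by a whole library, so it does not cover such shifts between these libraries. The level of a list is the mean log2 of its tested genes minus that of the Ras;APC FF libraries. Coordinates come from GENCODE M21 by symbol, which held 82 members, and promoters come from RefSeq. The NRF1 core of 9 letters was chosen after the matches of a longer form had been seen.

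The members and lists were chosen with earlier results of these data known. Genes given in full were, per complex, the most abundant and those of most positive and most negative change, the 4 Sdh genes, catalytic or core subunits and isoform pairs, and, in other lists, up to 3 of smallest p. One gene that the rule takes is not reported here. Cox7a2l, Cox7b2, Atp5s, Atp5sl and Ppargc1a were named outside this rule, after their values were seen. Alternatives were other pseudocounts (0.1 and 0.01), filters (none, or a mean of at least 5 FPKM), scalings (median of ratios, quantile, and the total without the 50 most abundant rows), robust eBayes, array weights and libraries left out.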

Additional observations from a re-analysis of the deposited data

How the results depend on the processing

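No paired analysis was possible because the replicate numbers 1 to 3 and 4 to 6 are not shared between the groups. With the 3 other scalings the members' median log2 change was -0.34 (median of ratios), -0.38 (quantile) and -0.39 (total without the 50 most abundant rows), and that of all tested genes -0.01, -0.02 and -0.05. In the same order the medians were -0.32, -0.36 and -0.38 for complex I, -0.42, -0.44 and -0.48 for II, -0.37, -0.41 and -0.42 for III, -0.37, -0.46 and -0.42 for IV, and -0.36, -0.39 and -0.42 for V. Of the 81 tested members, 32 were above 0 on the FPKM scale and 3, 3 and 2 in these scalings. Single genes were followed through the settings for 29 members only. Of these 29, those above 0 that turned sign in these scalings were Atp5g3 (-0.23, -0.30, -0.28), Cox4i2 (-0.08, -0.03, -0.11), Cox5a (-0.22, -0.23, -0.27), Cox8a (-0.31, -0.45, -0.37), Cyc1 (-0.24, -0.26, -0.29), Ndufs4 (-0.07, -0.10, -0.13), Sdhd (-0.14, -0.17, -0.20), Uqcr10 (-0.09, -0.10, -0.14) and, at 0.00 with the last scaling, Ndufa4l2. In the total without the 50 most abundant rows the members' share was 5.7%, 6.47% and 4.15% in PGC-carrying replicates 4, 5 and 6, against 6.82%, 6.53% and 7.85% in control replicates 1, 2 and 3. None of these members was called in any scaling.

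Array weights, whose estimate stopped before it converged, called 1 of 81 members higher, Cox6b2 (0.79), against 29.7% of all tested genes. They put 55 of the 81 members above 0. Of the 29 followed members they turned Atp5g1 (0.07), Cox6a1 (0.09), Cox6b1 (0.01), Cox7a2 (0.01) and Uqcrb (0.15). Without replicates 3 and 6, 1 of 81 members was called higher, Atp5g2 (0.39), against 16.4% of all tested genes. The members' median was 0.17 (0.17, 0.03, 0.21 and 0.16 for complexes I, II, III and V), and relative to all tested genes -0.01 (-0.01, -0.15, 0.03, 0.00 and -0.02 for I to V). Then 73 of the 81 members were above 0. Of the 29 followed members, those that turned were Atp5a1 (0.05), Atp5b (0.02), Atp5g1 (0.24), Atp5h (0.12), Cox4i1 (0.04), Cox6a1 (0.22), Cox6b1 (0.15), Cox7a2 (0.18), Ndufa4 (0.12), Ndufb9 (0.16), Sdhc (0.08) and Uqcrb (0.23).

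With 1 library left out, 0 to 1 members were called higher. The log2 change ran from -0.14 to 0.03 for Atp5a1, -0.27 to 0.00 for Atp5b, -0.18 to 0.16 for Atp5g1, -0.31 to 0.02 for Atp5h, -0.26 to 0.06 for Cox4i1, -0.03 to 0.20 for Cox4i2, -0.21 to 0.09 for Cox6a1, -0.11 to 0.12 for Cox6b1, 0.52 to 1.42 for Cox6b2, -0.23 to 0.18 for Cox7a2, -0.11 to 0.21 for Cox8a, -0.05 to 0.18 for Cyc1, -0.11 to 0.03 for Sdhc and -0.15 to 0.17 for Uqcrb.

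Of all tested genes, 13 higher and 5 lower became 29 and 34 higher with pseudocounts of 0.1 and 0.01, 3 higher with no filter, 7 higher and 2 lower with a mean of at least 5 FPKM, 7 higher with robust eBayes, 3523 and 369 with array weights, 1942 and 159 without replicates 3 and 6, and 0 to 832 and 0 to 106 with 1 library left out. The lower calls were 10, 13 and 10 in the 3 scalings. Calls in the other mitochondrial lists (0 as reported) were 46 higher and 2 lower with array weights. They were 34 and 1 without replicates 3 and 6. In these 2 settings 29.7% and 16.4% of all tested genes were called higher. The lists held 77, 45, 17, 12, 7, 4 and 1 tested genes. With 1 library left out, 0 to 2 genes of these lists were called higher. Calls in marker lists (2 lower as reported) were 1 lower with a pseudocount of 0.01 and with the stricter filter, 15 higher and 23 lower with array weights, 11 and 17 without replicates 3 and 6, and 0 to 10 and 0 to 13 with 1 library left out. The same shares of all tested genes, 29.7% with array weights and 16.4% without replicates 3 and 6, stand beside the higher calls in marker lists. Medians relative to all tested genes that moved beyond the spread between libraries were as follows. With no filter the mitochondrial ribosome was at 0.19, pericyte markers at -0.03, endothelium at -0.09 and all tested genes at 0.14. With the stricter filter mobile carriers were at -0.22, striated muscle at -1.61 and pericyte at -0.62. White fat was at -1.47 with a pseudocount of 0.01, and surface pit at 0.32 with quantile normalization. With array weights surface pit was at 0.01, white fat at -0.60, pericyte at -0.22 and endothelium at -0.31. Without replicates 3 and 6 surface pit was at 0.06, endocrine at -0.24, smooth muscle at -0.92, white fat at -0.58, pericyte at -0.32 and proliferation at 0.33. With 1 library left out endocrine ran from -1.29 to -0.23, pericyte from -0.70 to -0.34 and endothelium from -0.30 to -0.15. The cause of these shifts was not tested.

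Depth behind the FPKM is unknown, and Cox4i2, Cox6b2 and Cox8b lie near the filter of 1 FPKM, where it limits precision most. The groups are not balanced for sex as read from Y-linked genes, and the fit has no term for it.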

Other observations

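Marker lists not described beside a result above gave these values. The 7 tested surface pit markers had a median log2 change of -0.06, with 3 above 0, and the 7 endocrine markers -0.73, with 0 above 0. The 5 tested white fat markers had a median of -0.80. Of these, Cfd (log2 change -3.27) and Adipoq (-2.10) were called lower at a limma adjusted p of 0.05, against 0.0422% of all tested genes. Of the 6 tested pericyte markers 3 were above 0 (median -0.15), and of the 7 endothelium markers 5 (median 0.05). Of the 2 tested brown fat markers both were above 0 (median 0.58). The share of all tested genes above 0 was 80.6%, with a median of 0.26. Ucp2, the 1 tested uncoupling protein gene, had 754, 913 and 964 FPKM in PGC;Ras;APC FF, against 592, 674 and 783 FPKM in Ras;APC FF (log2 change 0.36).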
